A study of Mus musculus with 6 samples.

Results

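The heat shock proteins, DNAJ proteins and CCT subunits are the chaperones that fold, hold and refold other proteins. The arrays listed 79 such genes among 18194 genes with a probe set of their own. They were chosen by name: gene symbols that begin with Hspa, Hspb, Hspd, Hspe, Hsph, Hsp90, Dnaja, Dnajb, Dnajc or Cct, followed by a digit. The rule uses no measured difference, but earlier results of these data were known when it was set. The genes are read by 195 single-gene probe sets, 1 for each of 28 genes and several for each of the other 51. Each gene is represented by the probe set with the highest mean log2 signal over the 4 arrays from shMiwi and shCaf1 cells. The 79 genes comprise 14 of the HSP70 and HSP110 family, 2 of HSP90, the 2 of the mitochondrial chaperonin, 8 small heat shock proteins, 4 DNAJA, 13 DNAJB, 27 DNAJC and 9 CCT genes. Hsp90ab1, the constitutive cytosolic HSP90, has no probe set of its own in the annotation used here and was not analysed.

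HSP70 proteins bind short exposed stretches of a polypeptide, hold them tightly on ATP hydrolysis and release them when ATP binds again. DNAJ proteins deliver clients to HSP70 and stimulate that hydrolysis, and HSP110 proteins act as the nucleotide exchange factors that reset it. HSP90 takes over partly folded clients, the CCT ring encloses actin and tubulin, HSPD1 with HSPE1 does the same in mitochondria, and small heat shock proteins hold unfolded proteins without ATP. Male germ cells express their own members of several of these families, among them Hspa2, Hspa1l, Hspa4l, Dnajb3, Dnajb8, Dnajb13 and Hspb9, some of them also when no heat stress is present. Spermatids repackage their chromatin with protamines and build a flagellum while transcription comes to a stop, so the transcripts present are largely stored ones.

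The cells were GFP-positive elongating spermatids, sorted 1 week after testes of wild-type ICR mice, an outbred strain, were transduced at 5 weeks of age with a lentivirus. The lentivirus carried GFP and a hairpin against Miwi (shMiwi, 2 arrays), a hairpin against Caf1 (shCaf1, 2 arrays), or the pSilencer vector as control (2 arrays). All groups were thus transduced, sorted and marked with GFP. The labels do not give the number of animals behind an array or whether more than 1 hairpin sequence was used, and the replicates are labelled biological. Miwi is Piwil1, the PIWI protein of late meiotic and haploid male germ cells, and Caf1 is taken here to be Cnot7, a deadenylase that shortens poly(A) tails. The number of arrays, 2 per group, limits the precision of every value below.

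The control arrays stood far apart from the other 4 and from each other. Hybridization controls, labelled RNAs spiked into every sample, gave 82.3 and 16.2 times the mean signal of the 4 shRNA arrays on the control arrays, against 0.806 to 1.20 times on the shRNA arrays. Across the chaperone genes, the log2 signals of a shMiwi array and a shCaf1 array correlated at r between 0.983 and 0.993, those of the 2 control arrays with each other at 0.538, and those of an shRNA array with a control array at 0.251 to 0.581; these are descriptions over 79 genes that share each array's scaling. Piwil1 had signals of 9780 and 10392 in shMiwi cells, against 21881 and 22442 in shCaf1 cells and 1445400 and 292540 in control cells. It was lower in shMiwi than in shCaf1 cells (log2 difference -1.14, SE 0.10, limma adjusted p = 0.00132). Cnot7 had signals of 4365 and 5012 in shMiwi cells, 3633 and 4330 in shCaf1 cells and 2003600 and 188880 in control cells, with both shMiwi arrays above both shCaf1 arrays and no call (log2 difference 0.24, adjusted p = 0.304). Its other 2 probe sets also had both shMiwi arrays above both shCaf1 arrays: 1 was called higher in shMiwi cells, with 645.1 and 605.3 in shMiwi cells, against 387.8 and 353.0 in shCaf1 cells (0.73, adjusted p = 0.0339), and the other was not called (0.38, adjusted p = 0.265). Defining markers of elongating spermatids were bright on all 4 shRNA arrays and on the second control array (summed signal of 7 markers 99997 and 108140 in shMiwi cells, 143940 and 156660 in shCaf1 cells, and 629760 on that control array), but summed to 1992 on the first control array. Markers of other cell types also gave signal on the shRNA arrays. Their median percentiles were 99.2 to 99.5 for pachytene spermatocytes and 98.8 to 99 for round spermatids, against 99.6 to 99.9 for elongating spermatids. They were 80.3 to 81.1 for spermatogonia, 79.9 to 84.0 for Sertoli cells, 95.5 to 96.5 for Leydig cells and 78.3 to 79.6 for macrophages. Whether other testis cells in the sorted fractions gave these transcripts was not tested. For these reasons the comparison of shMiwi with shCaf1 cells, which does not use the control arrays, is given first.

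Promoter windows show which of these genes carry the sequence elements for which the families are known. Each window runs from 250 bases before to 50 bases after a RefSeq gene start (assembly GRCm38.p6), and 65 of the chaperone genes had one, among 17492 protein-coding genes. Searched on both strands, the heat shock element was written as TTCNNGAA and as GAANNTTC, 2 arrangements that overlap in longer runs, and as the 3-unit form, GAANNTTC followed by NNGAA. The endoplasmic reticulum stress element was written as CCAAT and CCACG with 9 bases of any kind between them, and the core of the cAMP response element, through which many spermatid genes are known to be activated, as TGACG. Windows are given here in lower case, with the matches for which each is shown in capitals, for Hspa1l, Dnajb4 and Dnajc3, which differed between shMiwi and shCaf1 cells, for Hspa1b, a stress-inducible HSP70 with several probe sets that disagreed in size, and for Hspe1, which holds the 3-unit element.
Hspa1l (chr17:34972453-34972752, plus strand): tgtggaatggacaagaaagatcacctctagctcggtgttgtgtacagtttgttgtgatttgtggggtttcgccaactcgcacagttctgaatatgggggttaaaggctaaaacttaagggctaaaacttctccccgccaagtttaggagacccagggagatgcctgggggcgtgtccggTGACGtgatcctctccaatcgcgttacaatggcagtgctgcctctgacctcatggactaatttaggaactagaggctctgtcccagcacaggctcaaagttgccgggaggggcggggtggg
Dnajb4 (chr3:152193796-152194095, minus strand): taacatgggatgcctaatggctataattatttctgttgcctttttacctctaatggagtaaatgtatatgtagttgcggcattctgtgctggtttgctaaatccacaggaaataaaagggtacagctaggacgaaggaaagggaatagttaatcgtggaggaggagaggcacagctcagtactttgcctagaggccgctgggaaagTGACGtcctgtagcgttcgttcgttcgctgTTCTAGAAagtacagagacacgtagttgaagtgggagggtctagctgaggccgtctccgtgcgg
Dnajc3 (chr14:118937682-118937981, plus strand): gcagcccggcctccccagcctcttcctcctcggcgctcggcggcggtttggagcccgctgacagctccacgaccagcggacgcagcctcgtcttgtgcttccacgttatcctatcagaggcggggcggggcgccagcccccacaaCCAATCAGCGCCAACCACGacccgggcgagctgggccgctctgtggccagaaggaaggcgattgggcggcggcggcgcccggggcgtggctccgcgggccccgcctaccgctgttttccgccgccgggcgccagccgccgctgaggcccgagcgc
Hspa1b (chr17:34959189-34959488, minus strand): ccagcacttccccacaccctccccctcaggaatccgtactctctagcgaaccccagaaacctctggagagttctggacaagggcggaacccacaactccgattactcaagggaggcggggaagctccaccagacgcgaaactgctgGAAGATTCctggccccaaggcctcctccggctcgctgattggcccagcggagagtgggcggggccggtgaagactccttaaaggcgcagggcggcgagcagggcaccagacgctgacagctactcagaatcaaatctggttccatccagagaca
Hspe1 (chr1:55087898-55088197, plus strand): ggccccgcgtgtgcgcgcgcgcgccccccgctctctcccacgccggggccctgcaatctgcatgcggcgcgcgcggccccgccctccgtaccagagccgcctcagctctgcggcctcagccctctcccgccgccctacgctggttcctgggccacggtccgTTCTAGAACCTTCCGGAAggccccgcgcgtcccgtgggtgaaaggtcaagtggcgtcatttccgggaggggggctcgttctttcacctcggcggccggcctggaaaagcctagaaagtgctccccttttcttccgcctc
Hspa1l shows the core TGACG alone, and the window of Dnajb4 shows that core and 1 TTCNNGAA match that begins at position -14 from the gene start. Dnajb4 has a second RefSeq start, whose window (chr3:152210034-152210333, minus strand) holds the core on each strand and no heat shock element by these letters. Dnajc3 holds the full endoplasmic reticulum stress element, Hspa1b 1 GAANNTTC match, and Hspe1 a run of 3 overlapping matches, besides a TGACG core that is not capitalised. Over all windows, GAANNTTC was found in 16 of the 65 chaperone genes (24.6%, against 8.44% of all genes) and TTCNNGAA in 8 (12.3%, against 8.73%). The 3-unit element was found in 4, namely Dnajb6, Hspd1, Hspe1 and Hsph1 (6.15%, against 0.595%). Hspd1 and Hspe1 lie head to head and their windows overlap, so they share 1 such sequence, which counts for both genes here and in the 2 shorter forms. The stress element of the endoplasmic reticulum was found in Dnajc3, Hsp90b1 and Hspa5 (4.62%, against 0.166%), and TGACG in 34 (52.3%, against 26.2%). These are letter matches and not measured binding.

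Between shMiwi and shCaf1 cells, 7 of the 77 chaperone genes that could be tested were lower in shMiwi cells and 1 was higher, by the fit with an intensity trend on the 4 shRNA arrays. The 7 were Dnajb8, Dnajb4, Hspa1l, Dnajc18, Dnajc5b, Dnaja4 and Dnajc21, and the 1 was Dnajc3. The log2 differences of the 7 lay between -1.16 and -0.48, and that of Dnajc3 was 0.73. Calls are at a Benjamini-Hochberg adjusted p under 0.05 from limma over all 27022 tested probe sets, of which 3.39% were lower and 3.7% higher, so the chaperone genes had 9.09% lower and 1.3% higher. The median difference was -0.08 on the log2 scale over the chaperone genes and 0.02 over all tested probe sets. After quantile normalization these medians were 0.013 and 0.009, so the lower chaperone median depended on the scaling. The shares and the median over all tested probe sets are not matched for brightness, and the chosen probe sets are the brightest of their genes. In 29 chaperone genes both shMiwi arrays lay below both shCaf1 arrays (25% of all tested probe sets did), and in 16 both lay above (29.5% of all). Hspa12b and Hspb3 were too dim to be tested. Left out of the fit, the second shCaf1 array changed this most: without it 1 gene, Dnajb8, was called lower and 0 higher, and without the first shMiwi array 9 were called lower and 4 higher. Without the intensity trend limma called 0 in either direction (12 had an unadjusted p under 0.05), and with all 6 arrays in the fit also 0 (0 had an unadjusted p under 0.05).

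**Figure D1:**
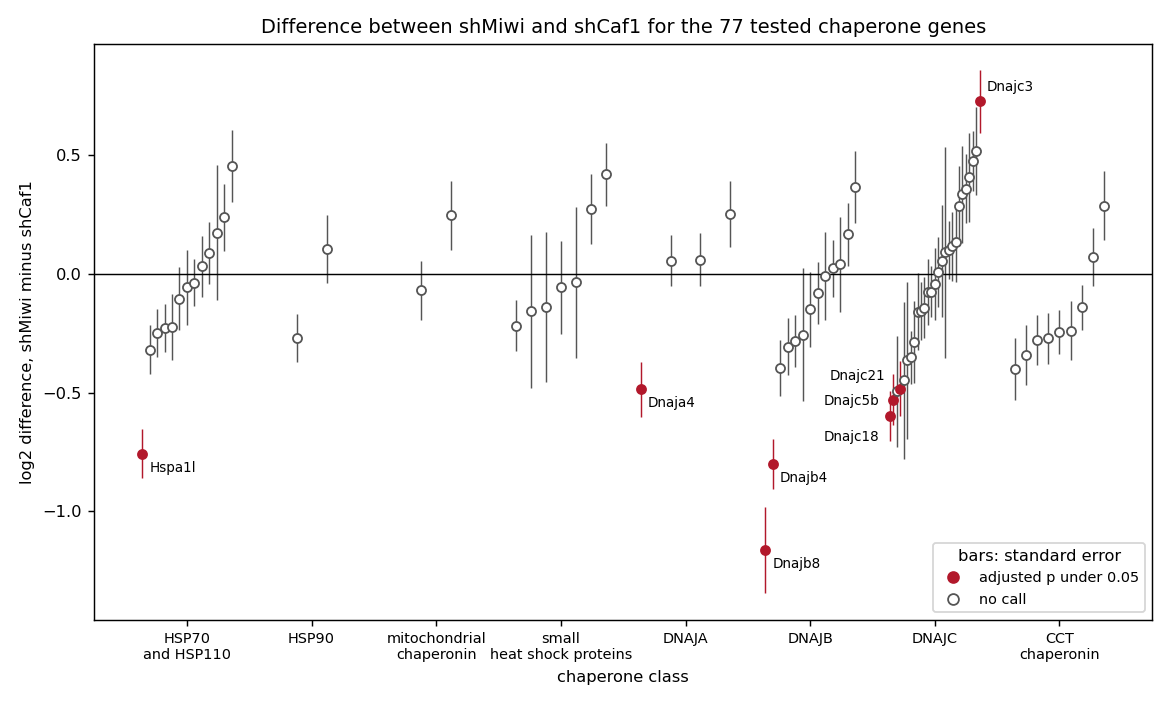
Log2 difference between shMiwi and shCaf1 cells (shMiwi minus shCaf1, vertical axis) for the 77 tested chaperone genes, ordered by size within each class, with standard errors as bars. Filled red points are the 7 genes called lower, from -1.16 to -0.48, and Dnajc3, called higher at 0.73; open points were not called.

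Among the HSP70 and HSP110 genes, Hspa1l, the HSP70 of spermatids encoded beside the stress-inducible pair, was the 1 call. It had signals of 6306 and 5973 on the shMiwi arrays, against 9973 and 10804 on the shCaf1 arrays. The groups did not overlap, and the shMiwi mean was lower by 0.76 on the log2 scale (log2 difference -0.76, SE 0.10, limma adjusted p = 0.00835). The control arrays, with 413.0 and 5032, lay below both groups.

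The other germ cell HSP70 proteins differed in the same direction by less, without passing the test. Hspa2, which mouse spermatocytes need to complete meiosis, had 12902 and 13355 on the shMiwi arrays, against 14733 and 16537 on the shCaf1 arrays (log2 difference -0.25, adjusted p = 0.171). Hspa4l, an HSP110 protein of male germ cells, had 22030 and 19082 on the shMiwi arrays, against 24788 and 26387 on the shCaf1 arrays (-0.32, adjusted p = 0.101). In both genes the groups were separate, and the unadjusted p was 0.0373 for Hspa2 and 0.0141 for Hspa4l, so the calls were missed only after adjustment over all probe sets. The 4 other probe sets of Hspa4l pointed the other way, from 0.30 to 0.66, and 2 of them were called higher, so the direction for Hspa4l depends on the probe set.

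Hspa8, the constitutive HSP70, had 9485 and 11461 on the shMiwi arrays, against 10234 and 12275 on the shCaf1 arrays, with the groups overlapping (-0.10, adjusted p = 0.679). Hspa4, the ubiquitous HSP110 protein, had 7633 and 7612 on the shMiwi arrays, against 7745 and 7912 on the shCaf1 arrays (-0.04, adjusted p = 0.851). Hsph1, the heat-inducible HSP110 protein, had 2187 and 1919 on the shMiwi arrays, against 1936 and 2077 on the shCaf1 arrays (0.03, adjusted p = 0.911). For these 3 genes the replicate arrays of a group were about as far apart as the groups, or the groups nearly met. Another probe set of Hspa4 was called higher in shMiwi cells (log2 difference 0.72).

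The stress-inducible HSP70 pair gave unequal readings. Hspa1b had 1389 and 1773 on the shMiwi arrays, against 1100 and 1184 on the shCaf1 arrays, a difference that did not pass the test (0.45, SE 0.15, adjusted p = 0.108). Its 2 other probe sets were called higher in shMiwi cells: the first had 458.3 and 562.1 on the shMiwi arrays, against 252.6 and 304.0 on the shCaf1 arrays (0.84, adjusted p = 0.0368), and the second 810.7 and 851.9 on the shMiwi arrays, against 406.7 and 390.2 on the shCaf1 arrays (1.03, adjusted p = 0.00987). All 3 probe sets thus had both shMiwi arrays above both shCaf1 arrays. Hspa1a had 409.7 and 428.3 on the shMiwi arrays, against 430.5 and 442.5 on the shCaf1 arrays (-0.06, adjusted p = 0.865). The 2 genes are nearly identical in sequence, so which of them a probe set reads is uncertain.

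Hspa5, the HSP70 of the endoplasmic reticulum, had 16540 and 15240 on the shMiwi arrays, against 17669 and 19593 on the shCaf1 arrays (-0.23, adjusted p = 0.209). Hspa9, the HSP70 of mitochondria, had 6311 and 7566 on the shMiwi arrays, against 5964 and 7090 on the shCaf1 arrays, and the groups overlapped (0.09, adjusted p = 0.736). In the HSP70 and HSP110 family as a whole, 5 of the 13 tested genes had a positive and 8 a negative difference, with a median of -0.06.

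Neither HSP90 gene was called by limma, and 1 of the 2 had an unadjusted p under 0.05. Hsp90aa1, the inducible cytosolic HSP90, had 24022 and 21498 on the shMiwi arrays, against 26096 and 28780 on the shCaf1 arrays (-0.27, adjusted p = 0.145). Another of its probe sets was called lower (-0.51, adjusted p = 0.0431), and a further one was at 0.18. Hsp90b1, the HSP90 of the endoplasmic reticulum, had 9154 and 10772 on the shMiwi arrays, against 8138 and 10480 on the shCaf1 arrays (0.10, adjusted p = 0.703). The groups did not overlap in Hsp90aa1 and did in Hsp90b1.

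The mitochondrial chaperonin showed no call either. Its ring subunit Hspd1 had 2640 and 2608 on the shMiwi arrays, against 2537 and 2993 on the shCaf1 arrays (-0.07, adjusted p = 0.779). Its lid Hspe1 had 2443 and 3150 on the shMiwi arrays, against 2241 and 2434 on the shCaf1 arrays (0.25, adjusted p = 0.338). The groups overlapped in Hspd1, and in Hspe1 both shMiwi arrays lay narrowly above both shCaf1 arrays. By limma's unadjusted p, 0 of the 2 genes were under 0.05.

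Of the 7 tested small heat shock proteins 0 were called by limma and 1, Hspb1, had an unadjusted p under 0.05. Hspb1, a small heat shock protein of many tissues, had 1943 and 1940 on the shMiwi arrays, against 1572 and 1332 on the shCaf1 arrays (0.42, SE 0.13, adjusted p = 0.093). Hspb9, the small heat shock protein of testis, had 15694 and 17531 on the shMiwi arrays, against 18249 and 20398 on the shCaf1 arrays (-0.22, adjusted p = 0.247). The groups were separate in both genes, in opposite directions.

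The DNAJ proteins held 7 of the 8 calls. Dnajb8, a testis-enriched DNAJB protein that in cultured cells keeps aggregation-prone proteins soluble, had 1424 and 955.6 on the shMiwi arrays, against 2734 and 2534 on the shCaf1 arrays. Both shMiwi arrays lay below both shCaf1 arrays by a wide margin, although they also differed from each other. The log2 difference was -1.16 (SE 0.18, limma adjusted p = 0.0128), a fold of 0.447, the largest among the chaperone genes.

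Dnajb4, a cytosolic partner of HSP70, had 3204 and 3237 on the shMiwi arrays, against 5531 and 5708 on the shCaf1 arrays. The log2 difference was -0.80 (SE 0.11, adjusted p = 0.00778), and the arrays of each group lay close together. Its other tested probe sets did not follow: 1 had 132.1 and 93.0 on the shMiwi arrays, against 109.9 and 136.9 on the shCaf1 arrays (-0.13, adjusted p = 0.812), and the other 2278 and 2048 on the shMiwi arrays, against 1707 and 1443 on the shCaf1 arrays (0.46, adjusted p = 0.0789). The call for Dnajb4 therefore belongs to 1 probe set of 3, and the spread of 1.26 between its probe sets was the widest of the 47 genes with another tested probe set.

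Dnajc18, a DNAJC protein with a predicted membrane anchor, had 4258 and 3994 on the shMiwi arrays, against 6292 and 6214 on the shCaf1 arrays (-0.60, SE 0.11, adjusted p = 0.0186). Dnajc5b, the testis form of cysteine string protein, had 5595 and 5535 on the shMiwi arrays, against 8522 and 7585 on the shCaf1 arrays (-0.53, SE 0.11, adjusted p = 0.0285). In both genes the shMiwi arrays were the lower pair and the groups were clear of each other. The 2 other probe sets of Dnajc18, both dim, were at 0.29 and -0.13 and were not called.

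Dnaja4 and Dnajc21 passed the threshold narrowly. Dnaja4, a cytosolic DNAJA protein, had 7649 and 7525 on the shMiwi arrays, against 9701 and 11649 on the shCaf1 arrays (-0.49, SE 0.12, adjusted p = 0.0431). Dnajc21, whose yeast counterpart acts in ribosome assembly, had 3412 and 3251 on the shMiwi arrays, against 4377 and 4969 on the shCaf1 arrays (-0.48, SE 0.12, adjusted p = 0.0432). The groups did not overlap in either gene. A second probe set of Dnajc21 was also called lower (-0.62, adjusted p = 0.0313), whereas those of Dnaja4 were at -0.13 and 0.23.

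Dnajc3, an endoplasmic reticulum protein that assists Hspa5 and is known as an inhibitor of the kinase PERK, was the gene called higher. It had 2267 and 2455 on the shMiwi arrays, against 1528 and 1320 on the shCaf1 arrays, without overlap. The log2 difference was 0.73 (SE 0.13, adjusted p = 0.0201), a fold of 1.65. Its 4 other probe sets had differences from 0.21 to 0.93, all positive, and none of them was called by limma.

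**Figure D2:**
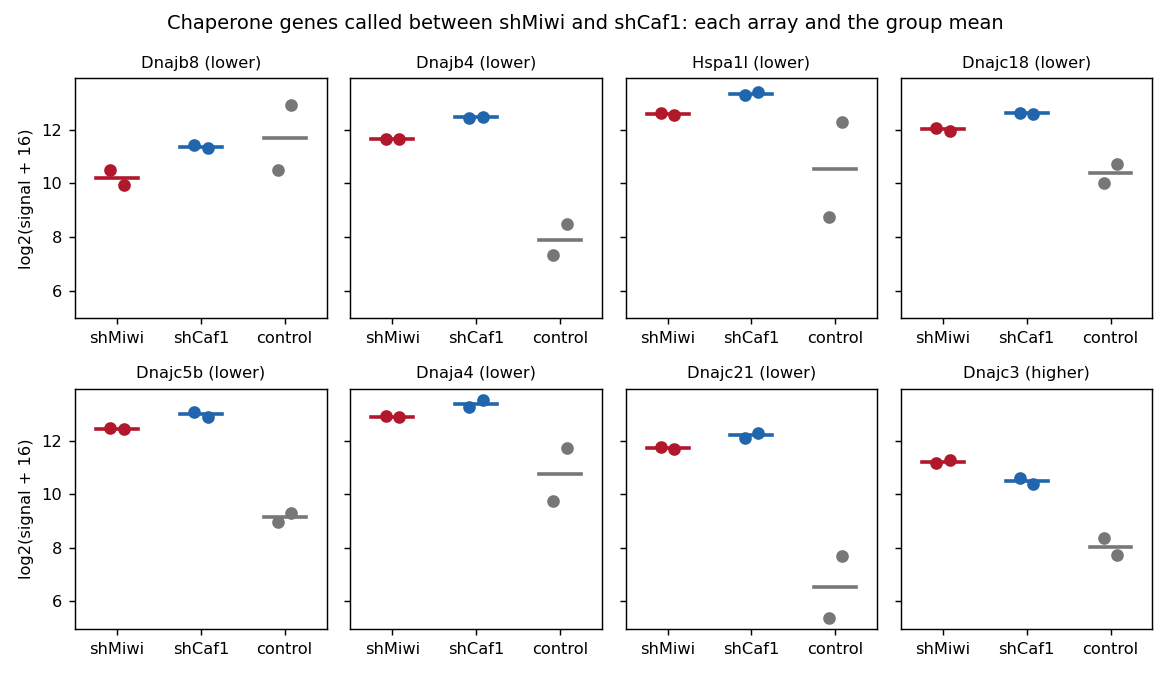
Signal of each array, as log2(signal + 16), for the 8 chaperone genes called between shMiwi and shCaf1 cells; points are arrays and horizontal lines are the means of the 2 arrays of a group. The red shMiwi points lie below the blue shCaf1 points in 7 genes and above them in Dnajc3, and the grey control points are spread more widely.

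Among DNAJ genes described for their roles, Dnajb13, a protein of the sperm flagellum, had 7215 and 5938 on the shMiwi arrays, against 8319 and 7887 on the shCaf1 arrays (-0.31, adjusted p = 0.159). Dnajb6, a suppressor of protein aggregation, had 5290 and 5712 on the shMiwi arrays, against 6445 and 6948 on the shCaf1 arrays (-0.28, adjusted p = 0.146). Both had separate groups with the shMiwi arrays lower. Dnajb3, a DNAJB protein of spermatids, had 13354 and 10889 on the shMiwi arrays, against 13860 and 11719 on the shCaf1 arrays (-0.08, adjusted p = 0.758), and its groups overlapped.

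The general HSP70 partners Dnajb1 and Dnaja1 gave nearly equal values. Dnajb1 had 3707 and 3188 on the shMiwi arrays, against 3421 and 3347 on the shCaf1 arrays (0.02, adjusted p = 0.932). Dnaja1 had 6661 and 5988 on the shMiwi arrays, against 6026 and 6135 on the shCaf1 arrays (0.05, adjusted p = 0.8). The groups overlapped in both, and another probe set of Dnaja1 was called higher (0.64, adjusted p = 0.0309). Just outside the threshold among the DNAJ genes were Dnajc13, an endosomal protein (0.47, adjusted p = 0.0575), Dnajb2 (-0.40, adjusted p = 0.078) and Dnajc7, which binds HSP70 and HSP90 (-0.35, adjusted p = 0.0943).

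Of the 9 CCT genes 0 were called by limma and 5 had an unadjusted p under 0.05, as did 6654 of all 27022 tested probe sets. A negative difference was found in 7, with a median of -0.25 over the 9. In 6 both shMiwi arrays lay below both shCaf1 arrays (25% of all tested probe sets did). Cct6b, the testis form of the sixth subunit, had 4493 and 5277 on the shMiwi arrays, against 5763 and 6623 on the shCaf1 arrays (-0.34, adjusted p = 0.135). Its ubiquitous counterpart Cct6a had 8431 and 9942 on the shMiwi arrays, against 8185 and 9286 on the shCaf1 arrays (0.07, adjusted p = 0.768). The groups were separate in Cct6b and overlapped in Cct6a. Cct8 was the 1 CCT gene with both shMiwi arrays above both shCaf1 arrays (0.29, adjusted p = 0.261).

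Grouped by where they are known to act, the testis-enriched chaperones lay lowest. These groups were drawn up from general knowledge after values had been seen, and they are described without a test. All 12 testis-enriched genes, which are Hspa1l, Hspa2, Hspa4l, Hspb9, Dnajb3, Dnajb7, Dnajb8, Dnajb13, Dnajc5b, Dnajc5g, Cct6b and Cct8l1, had a negative difference, from -1.16 to -0.08 with a median of -0.33. In 9 of them both shMiwi arrays lay below both shCaf1 arrays (25% of all tested probe sets did), and 3 were called lower (3.39% of all). Hspa4l is counted here by its chosen probe set, and its 4 others were positive. The 9 heat-inducible genes (Hspa1a, Hspa1b, Hspb1, Hsph1, Dnajb1, Dnaja1, Hspd1, Hspe1 and Hsp90aa1) had a median of 0.03, with 6 positive, 3 negative and no call. The 8 genes of the endoplasmic reticulum (Hspa5, Hspa13, Hsp90b1, Dnajb9, Dnajb11, Dnajc1, Dnajc3 and Dnajc10) had a median of 0.14, with 6 positive and Dnajc3 called higher. Dnajb12 (-0.26) and Dnajb14 (-0.01), membrane proteins of that compartment whose J domain faces the cytosol, were not placed among them. Dnajc18 (-0.60, called lower), with a predicted membrane anchor, and Dnajc25 (0.05), with a membrane anchor, were not placed there either. The 7 mitochondrial genes had a median of 0.01.

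Markers of elongating spermatids differed in the same direction as the testis-enriched chaperones. All 7 markers (Prm1, Prm2, Tnp1, Tnp2, Akap4, Odf1 and Gapdhs) had both shMiwi arrays below both shCaf1 arrays, with differences from -0.98 to -0.39 and a median of -0.48, and 6 were called lower. Their summed signal was 108140 and 99997 on the shMiwi arrays, against 143940 and 156660 on the shCaf1 arrays. The median was -0.21 for round spermatid markers and -0.11 for pachytene spermatocyte markers (Hspa2 among them, 2 of 5 positive). Macrophage markers also had a median of -0.21, with 2 positive and 2 negative. Spermatogonial markers were positive in 4 of 4 (median 0.23), without a call. In 3 of 3 peritubular markers both shMiwi arrays lay above both shCaf1 arrays, with Myh11 called higher (0.93). Of 6 Sertoli markers 4 had a positive difference (median 0.14) and Wt1 was called higher (0.77), although their summed signal was lower, at 25128 and 22694 in shMiwi cells, against 26173 and 26403 in shCaf1 cells. All 4 tested Leydig markers had a positive difference (median 0.16) and Cyp11a1 was called higher (0.51). The part of cell makeup in the chaperone differences was not tested. In sorted fractions, fewer cells of a type and less RNA per cell cannot be told apart.

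**Figure D3:**
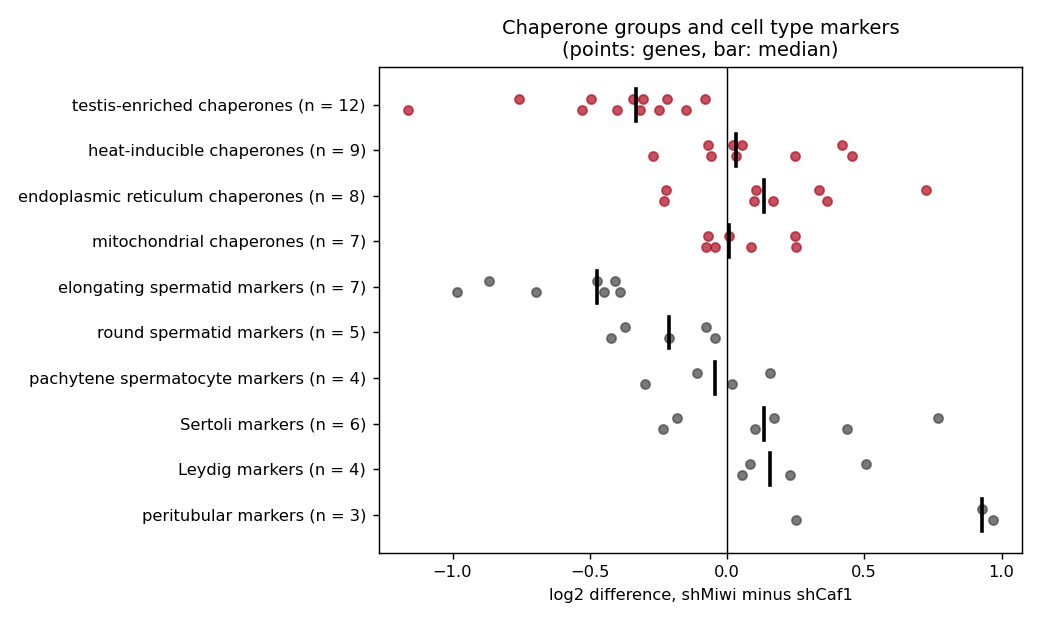
Log2 difference between shMiwi and shCaf1 cells (shMiwi minus shCaf1, horizontal axis) for 4 groups of chaperone genes (red) and for markers of some testis cell types (grey, Hspa2 left out of the spermatocyte list). Each point is a gene and each black bar a median. Spermatogonial, macrophage, endothelial and erythrocyte markers are not shown. The testis-enriched chaperones (median -0.33) and the elongating spermatid markers (median -0.48) lie left of 0, and the peritubular markers right of it.

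These differences are relative to each array's overall brightness. On the scale of the hybridization controls, the median over all tested probe sets was 0.39 and that over the chaperone genes 0.32. The testis-enriched genes then had a median of 0.07, with 7 of 12 positive. On that scale 18 chaperone genes were called higher, Dnajc3 among them at 1.12, and 1 lower, Dnajb8 at -0.77; of all tested probe sets 26.4% were called higher and 0.977% lower. The other 6 genes called lower on the deposited scale kept a negative sign and were not called. The other groups had medians of 0.53 (endoplasmic reticulum), 0.43 (heat-inducible) and 0.40 (mitochondrial). The sign of the testis-enriched median thus depended on the scale. The order of the 4 groups was the same on both scales. Rescaling whole arrays moves most genes by nearly the same amount, so that order was largely fixed in advance.

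Different probe sets of 1 gene often disagreed. Of the 47 genes with another tested probe set, 26 had all of them on the same side of 0 as the chosen one and 21 had at least 1 on the other side. The median spread within a gene was 0.35 on the log2 scale. Among 89 other tested probe sets, 6 were called higher and 3 lower, with a median difference of 0.06. The 6 belong to Dnaja1, Hspa1b, Hspa4 and Hspa4l, and the 3 to Cct3, Dnajc21 and Hsp90aa1. Counted over all probe sets, the chaperone genes thus had 7 probe sets called higher, in place of 1.

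**Figure D4:**
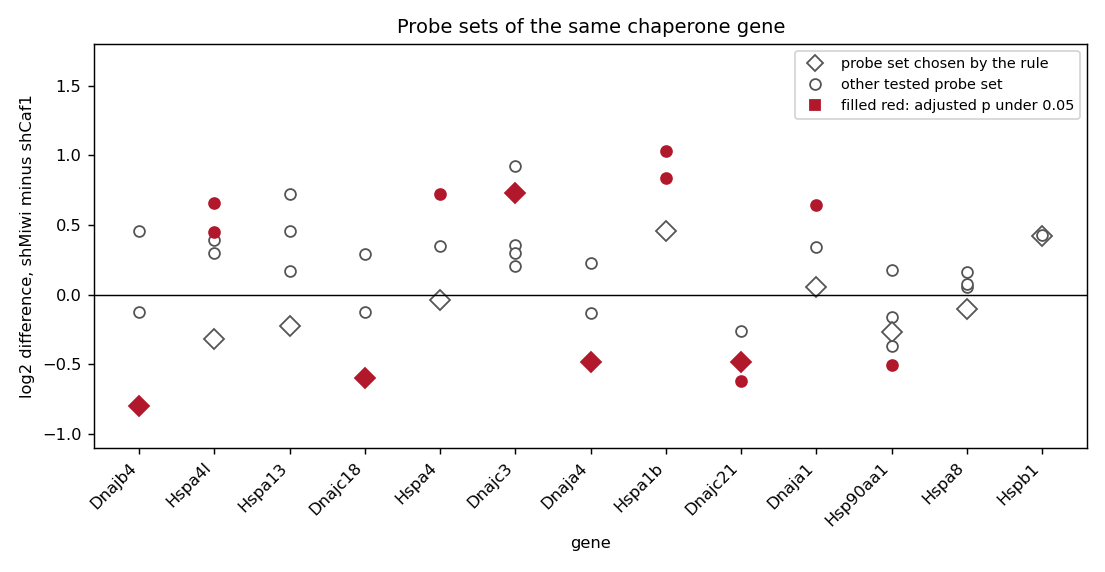
Log2 difference between shMiwi and shCaf1 cells (shMiwi minus shCaf1, vertical axis) for every tested probe set of 13 chaperone genes, picked after their values were seen to show agreement and disagreement. Diamonds are the chosen probe sets, circles the others, and red marks an adjusted p under 0.05; Dnajb4 and Hspa4l lie on both sides of 0, and all 5 probe sets of Dnajc3 lie above it.

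Against the control vector, more chaperone genes were called higher than lower in both knockdowns on the deposited scale. Of 75 tested chaperone genes, 33 were higher in shMiwi than in control cells (44%, against 16.9% of all tested probe sets) and 7 were lower (9.33%, against 26.4%). In shCaf1 cells 35 were higher than in control cells (46.7%, against 15.5%) and 6 were lower (8%, against 26%). The median difference was 2.003 for shMiwi and 1.96 for shCaf1 on the log2 scale, against -0.20 and -0.25 over all tested probe sets. Both comparisons use the same 2 control arrays. The shares over all tested probe sets are not matched for brightness. The chaperone genes lay at a median percentile of 92.0 to 92.8 of the signals on the shRNA arrays, and of 59.4 and 82.2 on the control arrays. Over all tested probe sets, an shRNA array correlated with the first control array at r of 0.037 to 0.071 and with the second at 0.396 to 0.462. The probe set of each gene was chosen for brightness on the shRNA arrays, which favours a higher value there: with the brightest over all 6 arrays, the medians were 1.65 for shMiwi and 1.76 for shCaf1.

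The calls rest on which arrays are in the fit. Without either shMiwi array, or without either shCaf1 array, the comparison of that group with control made 0 calls over all probe sets, and 31 to 36 chaperone genes had an unadjusted limma p under 0.05. With 1 control array left, the spread in the fit comes from the shRNA arrays alone. Counts of calls from such fits are therefore not comparable with those above. Set against the first control array alone, the median difference over all 79 genes was 2.39 for shMiwi and 2.44 for shCaf1, and against the second 1.23 and 1.18, in the same order.

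The HSP70 and HSP110 genes were higher in 7 of 13 tested and lower in none in both comparisons by limma's adjusted p. Of all tested probe sets 16.9% were higher for shMiwi and 15.5% for shCaf1. Hspa4 had 7633 and 7612 in shMiwi cells and 7745 and 7912 in shCaf1 cells, against 31.0 and 82.0 on the control arrays (log2 difference 6.81 for shMiwi, adjusted p = 0.00374, and 6.85 for shCaf1, adjusted p = 0.0047). Hspa8 had 26.8 and 710.8 on the control arrays, so that all 4 shRNA arrays lay above both (5.89 for shMiwi, adjusted p = 0.0195, and 5.99 for shCaf1, adjusted p = 0.0194). Hsph1 had 35.9 and 54.1 on the control arrays (5.10 for shMiwi, adjusted p = 0.00374, and 5.07 for shCaf1, adjusted p = 0.0047). In all 3 genes the control arrays were far below every shRNA array.

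Hspa2 was higher by 2.73 in shMiwi and 2.98 in shCaf1 cells, with control signals of 1008 and 3827. Hspa4l was higher by 3.74 and 4.06, with control signals of 1323 and 1747. Hspa5 was higher by 2.41 and 2.64, with 3358 and 2643, and Hspa9 by 4.10 and 4.01, with 306.1 and 489.9. All of these passed the test in both comparisons and had control arrays below every shRNA array. Hspa1l (2.06 and 2.82), Hspa1a (0.52 and 0.58) and Hspa1b (1.48 and 1.02) had positive differences that did not pass the test, for shMiwi and shCaf1 in that order.

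Both HSP90 genes were higher. Hsp90b1 had 9154 and 10772 in shMiwi cells and 8138 and 10480 in shCaf1 cells, against 225.4 and 412.0 on the control arrays (4.95 for shMiwi, adjusted p = 0.00412, and 4.85 for shCaf1, adjusted p = 0.00516). Hsp90aa1 had 924.1 and 1418 on the control arrays and was higher by 4.29 in shMiwi and 4.56 in shCaf1 cells. Another probe set of Hsp90aa1 had 28005 on the first control array and 1231 on the second, against 3656 to 5872 on the shRNA arrays, so its 2 control readings stood on opposite sides of all of them.

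The CCT subunits all had positive differences, 5 of 9 called higher in shMiwi and 6 in shCaf1 cells (16.9% and 15.5% of all tested probe sets were). Cct2 had 16018 and 15871 in shMiwi cells and 17198 and 17991 in shCaf1 cells, against 80.9 and 2142 on the control arrays (5.13 for shMiwi, adjusted p = 0.0372, and 5.27 for shCaf1, adjusted p = 0.0357). Cct6a, with 526.8 and 202.9 on the control arrays, was higher by 4.73 and 4.66, and Cct6b, with 548.4 and 663.2, by 2.98 and 3.32. The control arrays lay below all shRNA arrays in these 3 genes. For Cct4 the choice of probe set decided the sign: by the brightest over all 6 arrays it was lower than control (log2 difference -2.27 in shMiwi cells, adjusted p = 0.0155, and -2.05 in shCaf1 cells, adjusted p = 0.0213).

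Among the DNAJ genes, Dnajc21 had the largest difference in the fit over both control arrays, with 3412 and 3251 in shMiwi cells and 4377 and 4969 in shCaf1 cells, against 25.6 and 191.4 on the control arrays (5.17 for shMiwi, adjusted p = 0.00762, and 5.65 for shCaf1, adjusted p = 0.00742). That rank rests on the first control array: against the second alone, Dnajc21 was at 4.01 for shMiwi and 4.50 for shCaf1, below Dnajb7 at 5.59 and 5.74. Dnajc3, with control signals of 316.6 and 193.5, was higher by 3.17 and 2.44, and Dnajb6, with 1035 and 187.6, by 3.58 and 3.86. Dnajb4, Dnajc5b and Dnajc18 were also called higher in both knockdowns, and Dnaja4 passed the test in shCaf1 cells and not in shMiwi cells. Dnajb1 (-0.04 and -0.06), Dnaja1 (0.19 and 0.14) and Dnajb3 (2.27 and 2.35) were not called. Dnajb1 had 1883 and 6582 on the control arrays, on either side of all shRNA arrays.

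The genes that were lower came from the small heat shock proteins, from DNAJ genes and, in shMiwi cells, Hspd1. Hspb2, a small heat shock protein of muscle, had 60.8 and 66.3 in shMiwi cells and 54.3 and 95.9 in shCaf1 cells, against 898.2 and 459.4 on the control arrays (-3.05 for shMiwi, adjusted p = 0.0084, and -2.89 for shCaf1, adjusted p = 0.0102). Hspb7, also of heart and muscle, had 148.1 and 79.8 in shMiwi cells and 132.4 and 95.4 in shCaf1 cells, against 1161 and 455.2 on the control arrays (-2.57 and -2.53). Hspb1 had 4728 and 5926 on the control arrays and was lower in both knockdowns (-1.44 in shMiwi cells, adjusted p = 0.0278, and -1.86 in shCaf1 cells, adjusted p = 0.0145). In each of the 3 the shRNA arrays lay below both control arrays. Over all probe sets the median signal was 305.1 and 215.7 on the control arrays, against 70.7 to 79.9 on the shRNA arrays. Dim probe sets thus tended to read lower on the shRNA arrays. Whether dim genes such as Hspb2 and Hspb7 fell by more than equally dim probe sets was not tested.

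Dnajc25, a DNAJC protein with a membrane anchor, had 121.2 and 115.1 in shMiwi cells and 108.9 and 117.7 in shCaf1 cells, against 1488 and 704.2 on the control arrays (-2.96 and -3.01). Dnajb12, of the endoplasmic reticulum membrane, had 365.2 and 211.4 in shMiwi cells and 407.8 and 275.7 in shCaf1 cells, against 2153 and 1618 on the control arrays (-2.68 and -2.42). Dnajb5 had 302.7 and 246.2 in shMiwi cells and 290.6 and 241.7 in shCaf1 cells, against 952.1 and 1153 on the control arrays (-1.88 and -1.92). These 3 passed the test in both comparisons, with no overlap. Hspd1, with 19660 and 6217 on the control arrays, was at -2.07 in shMiwi cells (adjusted p = 0.0478) and -2.00 in shCaf1 cells (adjusted p = 0.0542), on either side of the threshold, and its lid Hspe1, with 1151 and 3309, was at 0.50 and 0.26 and was not called.

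The control arrays disagreed with each other for many chaperones, germ cell members among them. Hspb9 had 38.0 on the first control array and 58292 on the second, against 15694 to 20398 on the shRNA arrays, so no comparison with control gave it a call (adjusted p = 0.442 for shMiwi and 0.414 for shCaf1). Dnajb8 had 1424 and 7764 on the control arrays, at or above the shMiwi arrays (-1.50, adjusted p = 0.206), with the shCaf1 arrays between the 2 (-0.34, adjusted p = 0.768). Dnajb13 had 367.6 and 5025 on the control arrays (2.24 and 2.55, not called) and Dnajb3 544.1 and 11204. Of the 12 testis-enriched genes 10 were higher on the second control array and 2, Dnajb7 (337.8 and 34.6) and Dnajc5g (548.8 and 82.0), on the first. Chaperones outside the testis-enriched group also split, such as the mitochondrial Dnajc30 (42.2 and 1500.3). The summed signals of the elongating spermatid markers were 1992 and 629760.

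On the scale of the hybridization controls every one of the 75 tested chaperone genes was higher in both knockdowns, including all those lower on the deposited scale; 90.4% of all tested probe sets were higher for shMiwi and 87.6% for shCaf1, and 0.0962% and 0.037% were lower. Which scale is closer to the RNA per cell was not tested. On that scale the median chaperone difference was 6.07 for shMiwi and 5.41 for shCaf1, against 3.58 and 3.15 for all tested probe sets. The constant of 16 was added after the division. Most chaperone signals on the first control array then lay below it, and those on the second lay on both sides. Where control signals are that low, the difference largely follows brightness on the shRNA arrays. Chaperone genes were bright there (median percentile 92.0 to 92.8), which favours a larger median. Whether they rose more than equally bright probe sets was not tested.

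**Figure D5:**
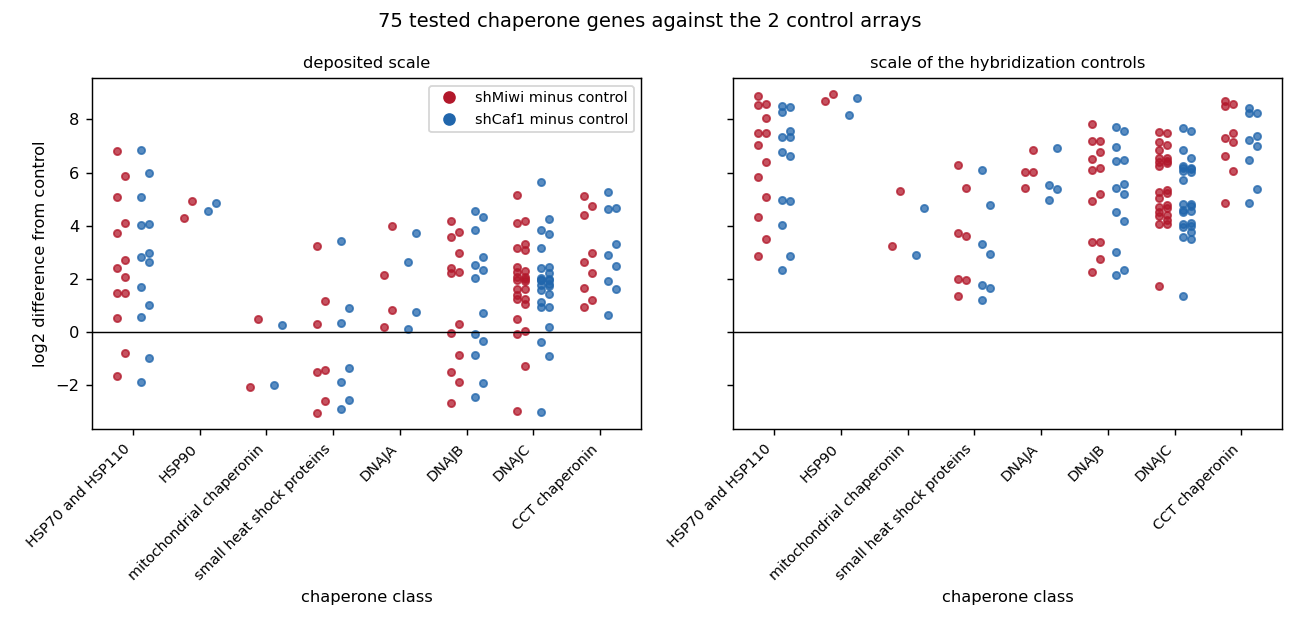
Log2 difference from control (vertical axis) of the 75 tested chaperone genes by class, for shMiwi (red) and shCaf1 (blue), on the deposited scale (left) and on the scale of the hybridization controls (right); each point is a gene. On the left most points lie above 0 and the small heat shock proteins lie on both sides, and on the right all points lie above 0.

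Of 65 tested genes in 5 lists (HSP70 co-chaperones, HSP90 co-chaperones, prefoldin and CCT assistance, folding in the endoplasmic reticulum, and heat shock factors), 1 was higher and 4 were lower in shMiwi than in shCaf1 cells (limma adjusted p under 0.05), which is 1.54% and 6.15%, against 3.7% and 3.39% of all tested probe sets, with a median of -0.03. Bag1, a nucleotide exchange factor of HSP70, had 4001 and 4097 on the shMiwi arrays, against 6604 and 7696 on the shCaf1 arrays (-0.81, adjusted p = 0.00951). Uri1, a prefoldin-like protein, was at -0.56, the lectin chaperone Calr at -0.50 and its testis form Calr3 at -0.48. Pdcl3, a phosducin-like partner of CCT, was higher, with 569.1 and 588.0 on the shMiwi arrays, against 365.6 and 290.5 on the shCaf1 arrays (0.80, adjusted p = 0.0349). The groups did not overlap in any of these genes.

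Against control, 24 of 66 genes of these lists were higher in shMiwi cells (36.4%, against 16.9% of all tested probe sets) and 4 lower (6.06%, against 26.4%). In shCaf1 cells 22 were higher (33.3%, against 15.5%) and 4 lower (6.06%, against 26%). These shares over all tested probe sets are not matched for brightness either. Pdcl2, the testis phosducin-like protein, was higher by 7.81 in shMiwi and 7.997 in shCaf1 cells, and Pdilt, a testis protein disulfide isomerase, by 4.48 and 4.93. Tcp1, the CCT subunit whose symbol does not begin with Cct, was higher by 1.95 and 2.28. The heat shock factor Hsfy2 was higher by 5.97 and 6.07 and Hsf5 by 1.31 and 1.23, while Hsf4 was lower (-4.33 and -4.08).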

How the data were processed

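RNA from sorted cells was extracted with Trizol, amplified and biotin-labelled by in vitro transcription and measured on Affymetrix arrays, per the labels' protocols. The deposited intensities, 1 linear signal per probe set and array, come from MAS5 per the submitters' processing notes (version and build not given in the sources used here), and the authors' values share 1 trimmed mean (500 after trimming 2% at each end), so a weakly hybridised array is multiplied up. Genes were named from the platform annotation, by probe sets with 1 gene (34958 of 45101; 932 name several genes and 9160 are unlisted). Gene symbols of all 79 matched mouse RefSeq (GRCm38.p6).

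Signals were taken to log2 after adding 16, which understates changes of dim probe sets. Affymetrix controls were dropped, and the 27022 probe sets whose mean log2 exceeded the 40th percentile (a signal of 42.8 over 4 arrays, 77.7 over 6) entered each fit. limma 3.58.1 in R 4.3.3 (lmFit, eBayes with trend) compared shMiwi with shCaf1 on their 4 arrays (2 residual degrees of freedom), and each with control on all 6 (3 residual degrees of freedom), with Benjamini-Hochberg adjustment over all tested probe sets. The fit was run on simulated data in which each probe set had the same spread on all arrays. The real control arrays varied more than the others, so that run does not test the comparisons with control. P-values measure the spread between the arrays given. A second scale divided each array by its mean signal of 18 hybridization control probe sets relative to the shRNA arrays. Depth has no count here, and the number of arrays limits precision.

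The genes given with values per array were those called between shMiwi and shCaf1, a list picked for role (Hsp90ab1 among them, not analysed), and the 6 largest rises and falls against control. Members and gene lists were chosen with earlier results of these data known. Other constants, filters, scalings, variance models, probe set choices, thresholds, a replicate block and the omission of single arrays were tried too.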

Additional observations from a re-analysis of the deposited data

How the results depend on the processing

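Between shMiwi and shCaf1, no chaperone gene named with a call changed sign under the alternatives that keep 1 probe set per gene, but each of the 8 calls was lost under at least 3 of them. Other probe sets of Dnajb4 (0.46), Dnajc18 (0.29) and Dnaja4 (0.23) had the opposite sign. Dnajb8 was no longer called only without the intensity trend, at an adjusted p under 0.01 and with all 6 arrays in the fit. The chaperone genes called lower numbered 7; they were 4 with no filter on dim probe sets, 4 with median centring, 1 with hybridization control scaling, 2 at an adjusted p under 0.01, 21 with the replicate block, and 0 both without the trend and with all 6 arrays in the fit. Those called higher numbered 1; they were 2 with the filter at the 60th percentile, 18 with hybridization control scaling, 6 with the replicate block, 7 over all probe sets, 3 at an adjusted p under 0.1, and 0 with the probe set chosen over 6 arrays, at an adjusted p under 0.01, without the trend and with all 6 arrays. In those last 2 fits 12 and 0 chaperone genes had an unadjusted p under 0.05. Leaving out each array gave 1 to 9 lower and 0 to 4 higher. In the co-chaperone, prefoldin, endoplasmic reticulum and heat shock factor lists, the 4 lower became 1 with no filter, 2 with quantile normalization, 1 with median centring, 0 with hybridization control scaling, 14 with the replicate block, 7 over all probe sets, 1 at 0.01, 8 at 0.1, 0 without the trend and 0 with all 6 arrays, and 0 to 6 when each array was left out. Their 1 higher became 0 with no filter, 16 with hybridization control scaling, 8 with the replicate block, 3 at 0.1, 0 at 0.01, 0 without the trend, 0 with all 6 arrays, and 0 to 5 when each array was left out.

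The replicate numbers did not establish a pairing: replicate differences correlated at 0.181 between shMiwi and shCaf1, 0.004 between shMiwi and control and 0.061 between shCaf1 and control, over 2 pairs each, and nothing in the labels says that a number marks a shared animal or day.

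Against control, the chaperone genes higher in shMiwi cells (33) were 75 with hybridization control scaling, also without control replicate 1 or 2, 58 over all probe sets, 19 at an adjusted p under 0.01, 21 with only the arrays of the 2 groups, and 0 to 56 when each array was left out. Those lower (7) were 2 with median centring, 0 with hybridization control scaling, also without control replicate 1 or 2, 1 with array weights, 20 over all probe sets, 3 at 0.01, 3 with only the arrays of the 2 groups, and 0 to 18 when each array was left out. In shCaf1 cells those higher (35) were 75 with hybridization control scaling (74 without control replicate 1, 75 without control replicate 2), 23 with array weights, 58 over all probe sets, 18 at 0.01, 21 with only the arrays of the 2 groups, and 0 to 56 when each array was left out. Those lower (6) were 1 with median centring, 0 with hybridization control scaling, also without control replicate 1 or 2, 1 with array weights, 18 over all probe sets, 1 at 0.01, 3 with only the arrays of the 2 groups, and 0 to 18 when each array was left out. For the co-chaperone and related lists, those higher in shMiwi cells (24) were 15 with quantile normalization, 41 with median centring, 65 with hybridization control scaling (also without either control), 13 with array weights, 15 with the replicate block, 6 at 0.01, 8 with only the arrays of the 2 groups, and 0 to 43 when each array was left out. Those lower (4) were 1 with median centring, 0 with hybridization control scaling (also without either control), 1 with array weights, 16 over all probe sets, 1 at 0.01, 1 with only the arrays of the 2 groups, and 0 to 15 when each array was left out. In shCaf1 cells those higher (22) were 42 with median centring, 65 with hybridization control scaling (also without either control), 13 with array weights, 5 at 0.01, 7 with only the arrays of the 2 groups, and 0 to 44 when each array was left out. Those lower (4) were 1 with median centring, 0 with hybridization control scaling (also without either control), 0 with array weights, 2 with the replicate block, 16 over all probe sets, 1 at 0.01, 1 with only the arrays of the 2 groups, and 0 to 14 when each array was left out. Without either array of the knockdown compared, the lone array is assumed to vary like the other groups. Without either control array, the spread comes from the shRNA arrays alone, so the counts from those fits are not comparable with the main ones.

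Signs turned for some genes against control. On the scale of the hybridization controls, followed by the values without control replicate 1 and without control replicate 2, the log2 differences in shMiwi cells were 4.95, 3.23 and 6.67 for Dnajb1, 2.26, 1.54 and 2.99 for Dnajb12, 2.75, 1.92 and 3.58 for Dnajb5, 3.40, 1.46 and 5.35 for Dnajb8, 1.75, 1.35 and 2.15 for Dnajc25, 3.75, 2.56 and 4.93 for Hspb1, 1.37, 1.01 and 1.73 for Hspb2, 1.96, 1.68 and 2.23 for Hspb7, and 3.25, 2.92 and 3.57 for Hspd1. In shCaf1 cells they were 4.53, 2.81 and 6.25 for Dnajb1, 2.14, 1.41 and 2.87 for Dnajb12, 2.33, 1.51 and 3.16 for Dnajb5, 4.17, 2.22 and 6.11 for Dnajb8, 1.35, 0.95 and 1.75 for Dnajc25, 2.93, 1.74 and 4.12 for Hspb1, 1.20, 0.84 and 1.56 for Hspb2, 1.65, 1.37 and 1.92 for Hspb7, and 2.92, 2.60 and 3.24 for Hspd1. With median centring Hspb1 was at 0.14 in shMiwi cells. With the probe set chosen over 6 arrays, Cct4 was at -2.27 in shMiwi and -2.05 in shCaf1 cells, and Dnajc1 at -1.60 and -1.21. Without control replicate 1 and without control replicate 2, in that order, Hspb9 was at -1.81 and 8.27 in shMiwi cells and -1.59 and 8.48 in shCaf1 cells, Dnaja1 at 1.23 and -0.85 in shMiwi cells and 1.18 and -0.91 in shCaf1 cells, Dnajb1 at -0.93 and 0.86 in shMiwi cells and -0.96 and 0.84 in shCaf1 cells, and Dnajb8 at -1.56 and 0.88 in shCaf1 cells. Hspe1 was at -0.50 in shCaf1 cells without control replicate 1. Except where fewer arrays or probe sets entered a fit, the cause was not tested.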
